A study of Arabidopsis thaliana with 16 samples.

Results

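The NAC transcription factor genes of Arabidopsis thaliana, without the 3 CUP-SHAPED COTYLEDON (CUC) genes, were taken by name: 95 of 27562 protein-coding genes of the RefSeq annotation had a coding product called a NAC domain containing protein or a NAC (No Apical Meristem) protein. No measured value entered this choice. The names missed some known NAC genes, 12 of the 47 genes of the role lists used below, among them VND1, VND4 to VND7, NST2, XND1 and NAP. CUC1, CUC2 and CUC3 served only for comparison. DNA affinity purification sequencing (DAP-seq) measured where a PLETHORA (PLT) protein made outside the plant bound purified genomic DNA. The baits were 3xFLAG-PLT3, 3xFLAG-PLT5, 3xFLAG-PLT7 and GFP, the last as control, and each bait was used on DNA from shoot apical meristems (SAM) and from inflorescence meristems (IM), with 2 replicate libraries of each kind and 16 libraries in all. All plants were wild-type Col-0 in long days. Each replicate used tissue of 500 meristems, from 9-day-old seedlings for SAM and from plants of 4 to 8 weeks for IM. Purified DNA keeps its cytosine methylation but not its chromatin proteins. Both tissues thus offered the same sequence to the bait, while methylation specific to a tissue was kept, which the study says can influence binding. Neither gene expression nor binding in the living meristem was measured. The study calls the replicates biological, each from its own pool of meristems.

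NAC proteins form a large family found only in plants. An N-terminal NAC domain binds DNA and lets the proteins pair, and a variable C-terminal part acts on transcription. The family sets organ boundaries, builds secondary cell walls, shapes the root cap, times leaf senescence and responds to stress and DNA damage. PLT proteins belong to the AINTEGUMENTA-like class of AP2 factors, which maintain stem cells in the root and influence the spacing of organs around the shoot meristem.

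The sequences at the centres of the strongest member sites are shown first, because they are what the baits met. A site was a stretch of DNA with a peak that passed the replicate comparison in at least 1 of the 6 PLT datasets (bait by tissue) and had no GFP peak of that tissue on it, and its summit is the position of highest signal. Capitals mark the best match to a 16-bp matrix fitted to the 600 strongest PLT7 summits of IM on chromosomes 1 and 2, with all member sites left out. Each stretch of 30 bases is read from RefSeq TAIR10.1, on the strand of the match.
NAC094 (chr5:15942201-15942230, plus strand): ggcgtgaCACCCATTTCCCGATAgaagtgc
ANAC085 (chr5:4673184-4673213, minus strand): ccatttaGGCTCGAATTCCGAAGctctcca
NAC027 (chr1:23795265-23795294, minus strand): actttcgATTGCGTTTCCCAAAGtagaacc
SMB (chr1:29944529-29944558, minus strand): gtaagtgGGAGCATAATTCAAGGtacgata
NST3/SND1 (chr1:11868600-11868629, minus strand): tagtatgGGAACAAATTACGAGGtgaaact
ATAF2 (chr5:2861106-2861135, minus strand): cgctttcTTTGCGAACTCCAATGtttttat
NAC060 (chr3:15975098-15975127, minus strand): gagtcttGTTCCGATTCCCGAGAcagaaca
NAC082 (chr5:2896767-2896796, plus strand): ctatcttGCCACGGTGTTCTAGGtattggt
NAC069 (chr4:677914-677943, plus strand): acctcccAACACGATTCCCTAAAcgcgttg
NAC097 (chr5:20679584-20679613, minus strand): tcttcttCACACTCTTCCCAATAaccggat
All 10 of these sites held a match within 50 bp of the summit, and 8 of the 10 had its centre within 10 bp of the summit. Over all 54 member sites, 35 held a match (64.8%, 95% Wilson interval 51.5 to 76.2%), at a median distance of 5 bp. Windows of 101 bp tiled over the genome held one in 5.28% of cases, and the threshold had been set so that 5% of windows lying 500 bp from a summit did. By dataset, the member summits held one in 65.6% (PLT3 SAM), 75.8% (PLT7 SAM), 66.7% (PLT3 IM) and 63.8% (PLT7 IM) of cases. The summits in the windows of any protein-coding gene, some of which the matrix was fitted to, held one in 56.7%, 58.2%, 54.0% and 57.1%. The share of all genes lay below the members' 95% Wilson interval in PLT7 SAM (59.0 to 87.2%) and inside it in the other 3 datasets, and the difference was not tested. The matrix was fitted to these libraries, so the shares describe the sites and are not an independent test of what PLT proteins bind.

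A consensus of 14 letters for PLT and AINTEGUMENTA binding, made of CNC, 3 free bases and TNNCNANG, was searched on both strands in the same 101-bp windows. Its letters came from the known motif and from earlier results of these data. The shares therefore describe the sites and are not an independent test. It occurred at 6 of the 54 member sites (11.1%), those of ANAC085, NAC001, NAC004, ANAC019, ANAC044 and ANAC053, and in 1.87% of genome tiles. Among the member summits of each dataset it occurred at 3 of 32 (9.38%) in PLT3 SAM, 4 of 33 (12.1%) in PLT7 SAM, 6 of 30 (20.0%) in PLT3 IM and 6 of 47 (12.8%) in PLT7 IM. The summits in the windows of all genes held it in 13.0%, 12.4%, 12.5% and 12.0% of cases in the same order, each inside the 95% Wilson interval of the members' share (the narrowest, in PLT7 IM, was 5.98 to 25.2%). At ANAC085 the match CTCGAATTCCGAAG lay exactly on the summit, inside the capitals shown above. The fit of the matrix had been started from matches to this consensus, so the matrix and the consensus are not separate searches.

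Across the family, binding was about as frequent as in the genome at large. A gene counted as bound when a retained peak touched a window that began 1500 bp before its start and ended 500 bp after it. PLT7 on IM DNA bound 42 of the 95 NAC genes (44.2%, 95% Wilson interval 34.6 to 54.2%), against 42.1% of all protein-coding genes. On SAM DNA PLT7 bound 31 members (32.6%, 24.0 to 42.6%), against 37.6% of all genes. PLT3 bound 29 members in each tissue (30.5%, 22.2 to 40.4%), where 29.6% of all genes were bound on SAM DNA and 32.8% on IM DNA. PLT5 gave far fewer retained peaks: it bound 2 members on IM DNA (2.11%, against 3.50% of all genes) and 0 of 95 on SAM DNA, which allows a share of up to 3.16% (0.889% of all genes). Every one of these intervals held the genome-wide share. Intervals and this limit cover counting error over genes only.

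**Figure D1:**
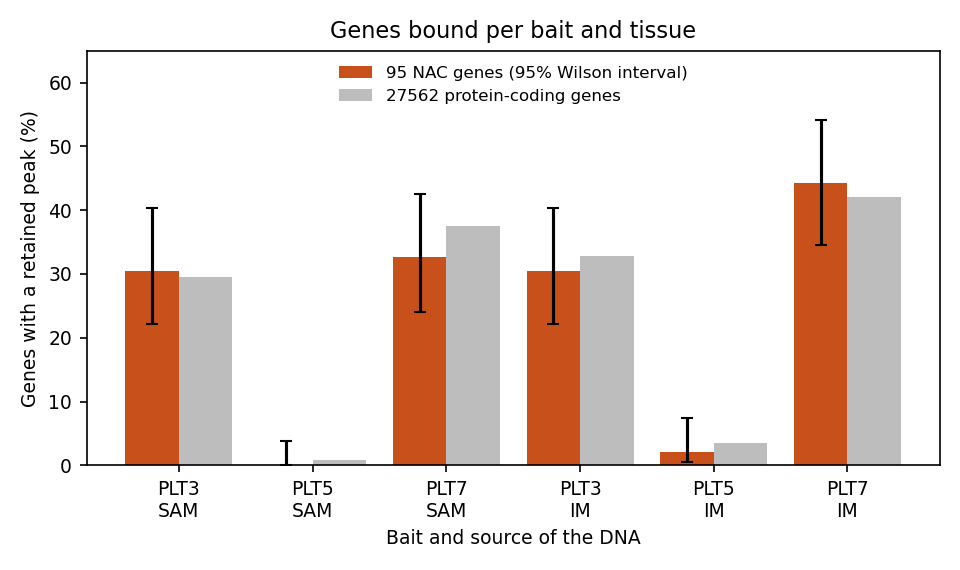
Share of genes with a retained peak in a window running from 1500 bp before the start to 500 bp after it, for the 95 NAC genes (orange, error bars are 95% Wilson intervals) and for all 27562 protein-coding genes (grey), by bait and source of the DNA. The grey bar lies inside the orange bar's interval in all 6 datasets, with PLT7 on IM DNA at 44.2% against 42.1% and PLT5 on SAM DNA at 0 of 95.

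Counted over baits and tissues, 49 members (51.6%) were bound by at least 1 PLT protein, as were 50.9% of all genes. 17 members (17.9%, against 21.1%) were bound by both PLT3 and PLT7 on both kinds of DNA: ANAC085, ATAF2, BRN2, FEZ, NAC004, NAC024, NAC027, NAC038, NAC048, NAC061, NAC069, NAC094, NAC097, NST3/SND1, ORS1, SMB and VNI2. No member was bound in all 6 datasets (0.577% of all genes were), and 2, ANAC085 and ORS1, were bound in 5. Of the 46 members without a retained peak, 27 had no peak in any of the 12 PLT libraries before filtering (28.4%, against 28.0% of all genes) and 19 had one in at least 1 library. BRN1 had the most among those 19, with a peak in 8 PLT libraries. CUC1 and CUC3 were bound by PLT3 and PLT7 on both kinds of DNA, CUC3 also by PLT5 on IM DNA, and CUC2 by none.

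PLT5 and GFP libraries held fewer peaks than PLT3 and PLT7 libraries. Members with an unfiltered peak in the window numbered 40 to 50 in each of the 8 PLT3 and PLT7 libraries (42.1 to 52.6%, against 40.5 to 55.4% of all genes), 10 to 18 in each PLT5 library (10.5 to 18.9%, against 7.05 to 20.1%) and 12 to 24 in each GFP library (12.6 to 25.3%, against 12.9 to 23.4%). Libraries held 23360 to 32232 peaks for PLT3 and PLT7, 3934 to 10545 for PLT5 and 5090 to 10003 for GFP, and read depth is unknown from these files. A GFP peak lay in the window of 39 members (41.1%, against 39.2% of all genes). Peaks with a GFP peak of their own tissue had been removed, so the 5 of the 54 member sites that did carry a GFP peak had it from the other tissue.

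The strongest member site was shared with a neighbour. NAC094 (AT5G39820), a family member with no role known here, had a site at chr5:15941948-15942730 whose summit lay 1645 bp upstream of its start, just outside the window, and 529 bp from the start of AT5G39830. Its PLT7 fold enrichment over local background was 9.20 and 8.31 on SAM DNA and 10.9 and 10.2 on IM DNA, which put it at the 99.2 percentile of all sites with a peak in 4 PLT7 libraries. PLT3 gave 4.24 and 4.49 on SAM DNA and 5.81 and 4.98 on IM DNA. Every PLT7 value was thus above every PLT3 value, and neither GFP replicate of either tissue had a peak there. A second NAC094 site, with its summit 62 bp upstream of the start, gave 3.83 to 4.93 for PLT7 and 2.69 to 3.65 for PLT3.

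The role lists are short, 50.9% of all genes were bound in at least 1 dataset, and the counts on the lists were not tested against that share. The 3 genes of the DNA damage response each kept a peak in at least 1 dataset. SOG1 (AT1G25580) is the regulator that starts the plant's response to DNA damage, and ANAC044 (AT3G01600) and ANAC085 (AT5G14490) are its closest relatives, which act after it to stop cell division. ANAC085 carried the second strongest site of the family, at chr5:4672969-4673387, 240 bp upstream of its start. PLT7 gave 8.34 and 5.38 on SAM DNA and 9.31 and 7.83 on IM DNA, PLT3 gave 3.43, 2.44, 3.46 and 3.08 in the same order, and PLT5 gave 2.63 and 2.62 on IM DNA and a peak of 2.13 in SAM replicate 2 alone. This site was 1 of the 2 that PLT5 held after filtering. ANAC044 was bound at its start (summit 8 bp downstream) on IM DNA, with 3.94 and 3.58 for PLT7 and 2.54 and 2.93 for PLT3. On SAM DNA only PLT7 replicate 1 had a peak there, of 3.59. SOG1 kept 1 weak site, in its 5′ untranslated exon, in PLT7 IM alone, where PLT7 gave 3.59 and 3.06. A stronger region in the SOG1 window, at 7.37 and 5.31 for PLT7 on IM DNA, was lost to GFP, whose highest values in that window were 6.45 and 5.54 on IM DNA and 4.11 and 5.38 on SAM DNA.

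Genes of the root cap came next. FEZ (AT1G26870) drives the divisions that renew the root cap, and SMB (AT1G79580), BRN1 (AT1G33280) and BRN2 (AT4G10350) bring its cells to maturity. FEZ, SMB and BRN2 were each bound by PLT3 and PLT7 on both kinds of DNA, as were 21.1% of all genes. The SMB site lay 802 bp upstream of the start, at chr1:29944269-29944807, where PLT7 gave 7.61 and 6.85 on SAM DNA and 7.10 and 6.19 on IM DNA, and PLT3 gave 4.83, 3.81, 4.02 and 3.57. It also lay in the window of AT1G79590. FEZ had a weaker site 202 bp upstream of its start (PLT7 3.01 to 4.21, PLT3 2.31 to 2.69). BRN2 had 2 sites, the stronger one 1616 bp upstream, with 4.24 and 4.15 for PLT7 on SAM DNA and 3.59 and 3.92 on IM DNA. The summit of that stronger site lay outside the BRN2 window, and the site also lay in the window of AT4G10360. The other site, 280 bp upstream, was retained in PLT3 SAM and PLT7 IM only. BRN1 was the exception: its peaks reached 2.07 and 2.36 for PLT3 on SAM DNA, 1.82 and 2.69 for PLT7 on SAM DNA, 2.27 and 2.01 for PLT3 on IM DNA and 2.36 for PLT7 on IM DNA in replicate 1 only, and none passed the replicate comparison. No GFP library had a peak in the window of any of these 4 genes.

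On the list for the secondary wall, 2 of the 7 members were bound, where 50.9% of all genes were, and the list's other 7 genes were not members. NST3/SND1 (AT1G32770), a switch for fibre wall thickening, and VNI2 (AT5G13180), an inhibitor of the vessel regulator VND7, were each bound by PLT3 and PLT7 on both kinds of DNA. NST3/SND1 was 1 of only 2 members, with ORS1, to have a peak in all 12 PLT libraries (2.11%, against 4.02% of all genes). Its site, 1462 bp upstream of the start, gave 7.81 and 6.35 for PLT7 on SAM DNA, 6.30 and 5.99 on IM DNA, and for PLT3 3.71, 2.88, 3.30 and 2.69. The VNI2 site was weaker, at 3.78 to 4.74 for PLT7. NST1, SND2, SND3, VND2 and VND3 had no retained peak, and SND2, SND3 and VND2 had none in any PLT library.

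Of 7 stress genes, 3 were bound, a share near that of all genes (50.9%). ATAF2 (AT5G08790), known from wounding and pathogen responses, gave 6.23 and 5.73 for PLT7 on SAM DNA and 6.98 and 7.08 on IM DNA at a site 570 bp upstream, with PLT3 at 2.81 to 3.43 and no PLT5 or GFP peak. ATAF1 (AT1G01720), known from drought and abscisic acid responses, gave 4.50 and 4.27, then 6.03 and 4.73, for PLT7 at a site 212 bp upstream. PLT3 had a peak at ATAF1 in both SAM libraries (2.49 and 2.89) and in neither IM library. ANAC019, a drought and jasmonate gene, gave 2.54 to 3.11 in the 7 PLT3 and PLT7 libraries that had a peak at its site. ANAC032, ANAC055, ANAC102 and RD26 were unbound, and the first 3 had no PLT peak at all.

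**Figure D2:**
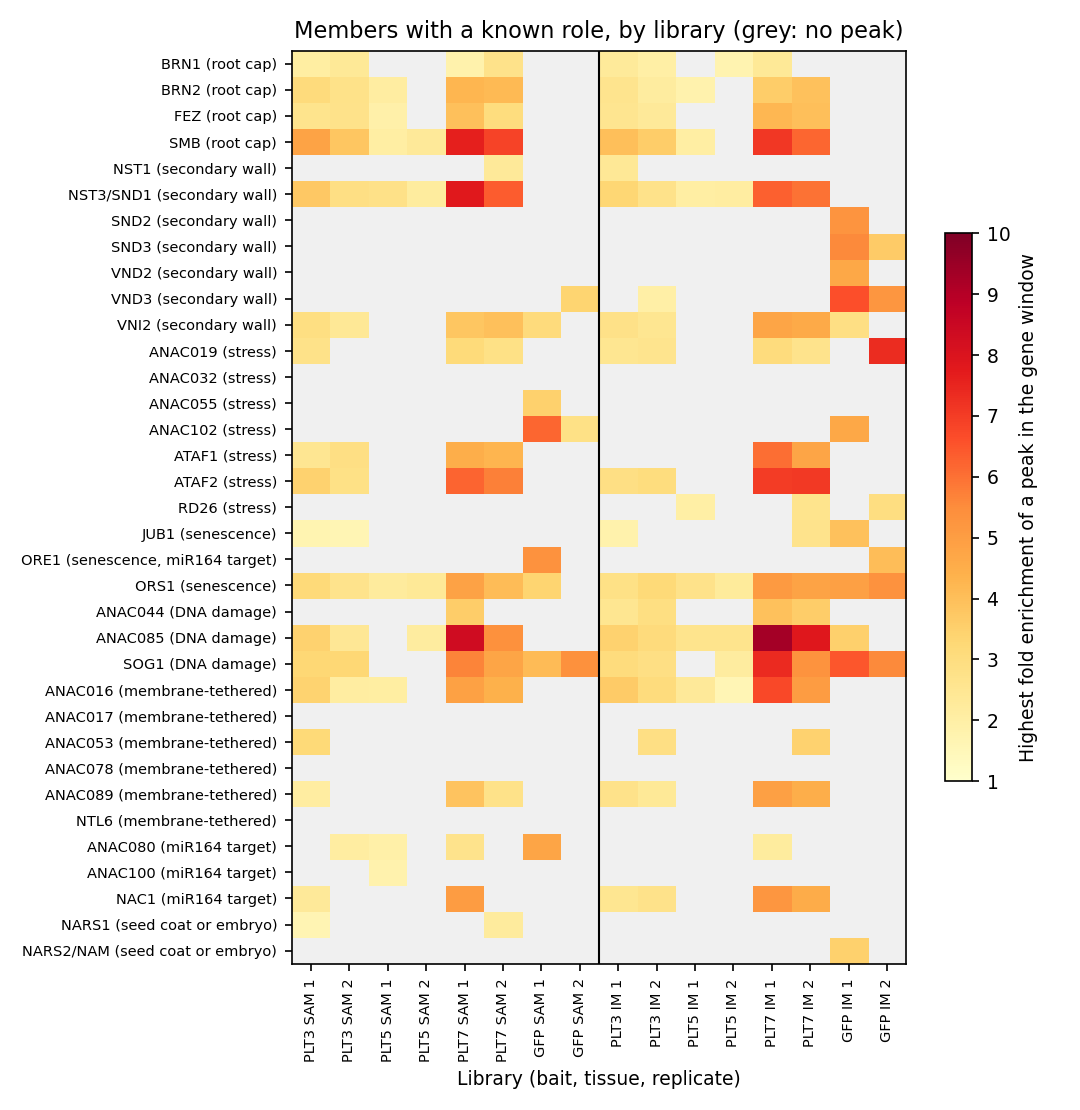
Highest fold enrichment of any deposited peak overlapping the gene window, before the replicate comparison and the removal of GFP peaks, for the 35 members with a known role (rows, role in brackets) in all 16 libraries (columns). Grey cells have no peak. PLT7 reaches 9.31 at ANAC085, 7.81 at NST3/SND1, 7.61 at SMB, 7.37 at SOG1 and 7.08 at ATAF2, the GFP columns are filled at SOG1, and 11 of the rows are empty in every PLT library.

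Of 3 senescence genes, 2 were bound, where 50.9% of all genes were. ORS1 (AT3G29035), which promotes leaf senescence, was the other PLT5 target, with 2.72 and 2.26 for PLT5 on IM DNA, 4.85 and 4.07 for PLT7 on SAM DNA, 5.09 and 4.80 on IM DNA, and 2.67 to 3.18 for PLT3, at a site 1233 bp upstream that AT3G29034 shared. GFP had peaks elsewhere in the ORS1 window in 3 libraries and none on this site. JUB1 (AT2G43000), which delays senescence, was bound in PLT3 SAM alone, at 1.69 and 1.60, among the lowest values of the family. ORE1, a promoter of senescence, had no PLT peak. Of the 4 members whose transcripts miR164 cleaves, ORE1 among them, only NAC1 (AT1G56010), an auxin-responsive root gene, was bound: on IM DNA at 2.53 and 2.69 for PLT3 and 5.21 and 4.54 for PLT7, 1349 bp upstream and in the window of AT1G56020. In SAM replicate 1, PLT7 had a peak of 5.01 at the same site, and in replicate 2 it had none.

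Among 6 membrane-tethered members, which are freed from a membrane to enter the nucleus, 3 were bound, also near the 50.9% of all genes. ANAC016 gave 4.89 and 4.39 for PLT7 on SAM DNA and 6.75 and 5.02 on IM DNA, 197 bp downstream of its start in a coding exon. ANAC089 had 2 sites and ANAC053 had 1, 654 bp downstream of its start, which reached into the window only with its edge. ANAC017, ANAC078 and NTL6 had no PLT peak. The seed and embryo genes NARS1 and NARS2/NAM were unbound. In all, 17 of the 35 members with a listed role (48.6%) and 32 of the other 60 (53.3%) were bound, against 50.9% of all genes.

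**Figure D3:**
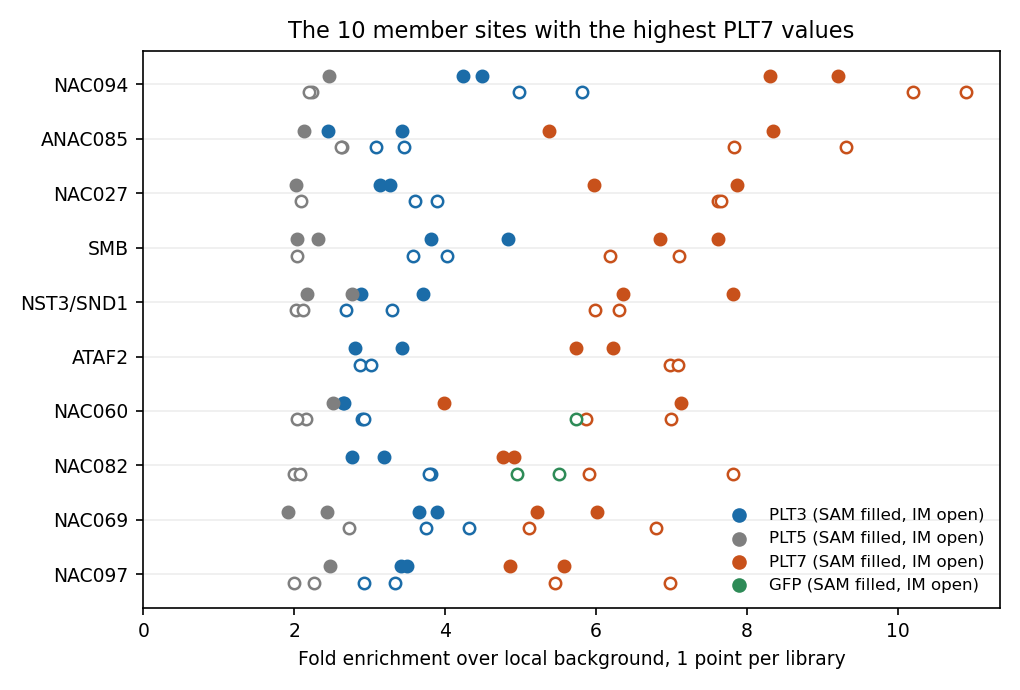
Fold enrichment over local background at the 10 member sites with the highest mean over the 4 PLT7 libraries, 1 point per library with a peak, coloured by bait, filled for SAM and open for IM. PLT7 points lie to the right of PLT3 points at every site, from 3.98 at NAC060 to 10.9 at NAC094, PLT5 points lie at or below 2.76, and GFP points appear only at NAC060 and NAC082.

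Most sites retained in a single tissue also had a peak in some library of the other tissue. PLT7 bound 15 members on IM DNA only (15.8%, against 10.1% of all genes) and 4 on SAM DNA only (4.21%, against 5.54%). Of the 17 member sites retained in PLT7 IM and not in PLT7 SAM, 10 had a peak in SAM replicate 1 and none in replicate 2, 1 the reverse, 4 had a peak in both, and 2 in neither. NAC052 (AT3G10490), which works with a histone demethylase, shows the common case: PLT7 gave 5.95 and 5.31 on IM DNA, 5.27 in SAM replicate 1 and no peak in SAM replicate 2, the library with the fewer peaks of that pair (26660 against 30292). NAC041 and NAC086 were the sites with no PLT7 SAM peak, at 2.80 and 3.06, and at 1.81 and 2.10, on IM DNA. In the other direction, the peaks of NAC060 and NAC082 were removed from the IM datasets because GFP had a peak there. At NAC060 (AT3G44290), PLT7 gave 7.13 and 3.98 on SAM DNA and 6.99 and 5.87 on IM DNA, where GFP replicate 1 gave 5.73. At NAC082 (AT5G09330), a gene of the response to faulty ribosomes, PLT7 gave 4.76 and 4.91, then 7.81 and 5.91, and GFP gave 5.51 and 4.95 on IM DNA. The summit of that site lay 1310 bp upstream of NAC082 but 124 bp from the start of AT5G09340, whose window it shared. NAC075 was the third of the 3 members retained for PLT3 and PLT7 on SAM DNA only (2.23% of all genes were). At its site PLT7 gave 2.69 and 3.47 on SAM DNA and had no peak in either IM library. PLT3 had a peak of 1.74 in IM replicate 1 and none in IM replicate 2. GFP IM replicate 1 also had a peak there (5.45), but neither bait had a pair of IM replicate peaks to remove. Under the same 2 baits, 4 members (2.82% of all genes), NAC1, ANAC044, NAC052 and NAC096 were retained on IM DNA only, NAC096 because its SAM peaks, around a summit 750 bp downstream of the start, ended short of the window.

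The tissues could be tested directly only at sites with peaks in both. limma was fitted to log2 fold enrichment, centred on each library's median, at the 14667 sites with a peak in all 8 PLT3 and PLT7 libraries, of which 30 were member sites. The other 24 member sites were not tested, among them 13 of the 17 retained in PLT7 IM and not in PLT7 SAM. Between IM and SAM, 0 of the 30 passed an adjusted p of 0.05 for PLT7, where 0.191% of all sites did, with 6 at an unadjusted p under 0.05, and 0 passed for PLT3, where 0.0818% did, with 2 at an unadjusted p under 0.05. NAC057 (AT3G17730) came nearest for PLT7, with 2.81 and 1.93 on SAM DNA and 3.83 and 3.54 on IM DNA, a centred log2 difference of 0.53 ± 0.17 (SE, adjusted p = 0.224). Without centring it passed, at 0.66 (adjusted p = 0.0226), as did 0.416% of all sites. The difference between PLT7 and PLT3 in their tissue effect passed at 0 of the 30 sites and 0% of all sites, with 1 member site at an unadjusted p under 0.05. Standard errors of the tissue differences at member sites ran from 0.13 to 0.19 log2, with 2 libraries a group. The largest centred difference, 0.53 at NAC057, did not pass, so even differences of that size can be missed. The 0 of 30 therefore does not show that binding was alike on both kinds of DNA.

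PLT7 and PLT3 did differ. As deposited, the 30 member sites had a median PLT7 minus PLT3 log2 difference of 0.64, and the median of all 14667 sites was 0.62. At 24 of the 30, every PLT7 value exceeded every PLT3 value, as it did at 78.0% of all sites tested, and 91.0% of all sites passed an adjusted p of 0.05 on this scale. Much of that shift is common to all sites, so the fit on centred values asks which sites depart from it. There 39.0% of all sites passed an adjusted p of 0.05, 19.7% higher for PLT7 and 19.3% lower, and 10 of the 30 member sites did, 6 higher and 4 lower, a share near that of all sites.

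The 6 sites higher for PLT7 than the common shift were among the 7 with the highest mean PLT7 value, which is itself a side of the difference. Their PLT3 means ran from 2.78 at NAC060 to 4.88 at NAC094, where the median of the 32 member sites with a peak in all 4 PLT3 libraries was 2.76. ANAC085 had the largest difference (0.67 ± 0.10 log2, SE, adjusted p = 3.41e-06), followed by ATAF2 (0.47 ± 0.10, adjusted p = 1.73e-04) and NST3/SND1 (0.45 ± 0.10, adjusted p = 3.73e-04). NAC027, NAC060 and NAC094 had centred differences of 0.44, 0.44 and 0.36. These 6 kept their direction and their call in every alternative run. The IM values of NAC060 entered the fit although GFP IM replicate 1 had a peak of 5.73 on that site. The part of GFP binding in them was not tested. NAC027 (AT1G64105), a member of unknown role bound inside its coding sequence, gave 7.87 and 5.97 for PLT7 on SAM DNA and 7.61 and 7.65 on IM DNA, against 3.13 to 3.89 for PLT3.

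The 4 sites lower for PLT7 relative to the common shift had mean PLT7 values of 2.04 to 3.18. AT1G35890 (-0.63 ± 0.14, adjusted p = 3.09e-04) gave 1.89 to 2.16 for PLT7 and 1.90 to 2.35 for PLT3, so that both baits gave like values there, GFP SAM replicate 2 had a peak of 4.23 on it, and the site ranked at the 0.420 percentile of sites with a peak in 4 PLT7 libraries. AT1G19040 (-0.49, with a GFP peak of 4.09 in IM replicate 1), NAC004 (-0.40) and NAC057 (-0.34, adjusted p = 0.0235) followed. The part of GFP binding in these values was not tested. As deposited, the last 3 of these differences were above 0, at 0.14, 0.23 and 0.29, so their direction is relative to the shift of all sites. NAC057 lost its call when any 1 of 4 libraries was left out and NAC004 when PLT3 IM replicate 1 was.

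**Figure D4:**
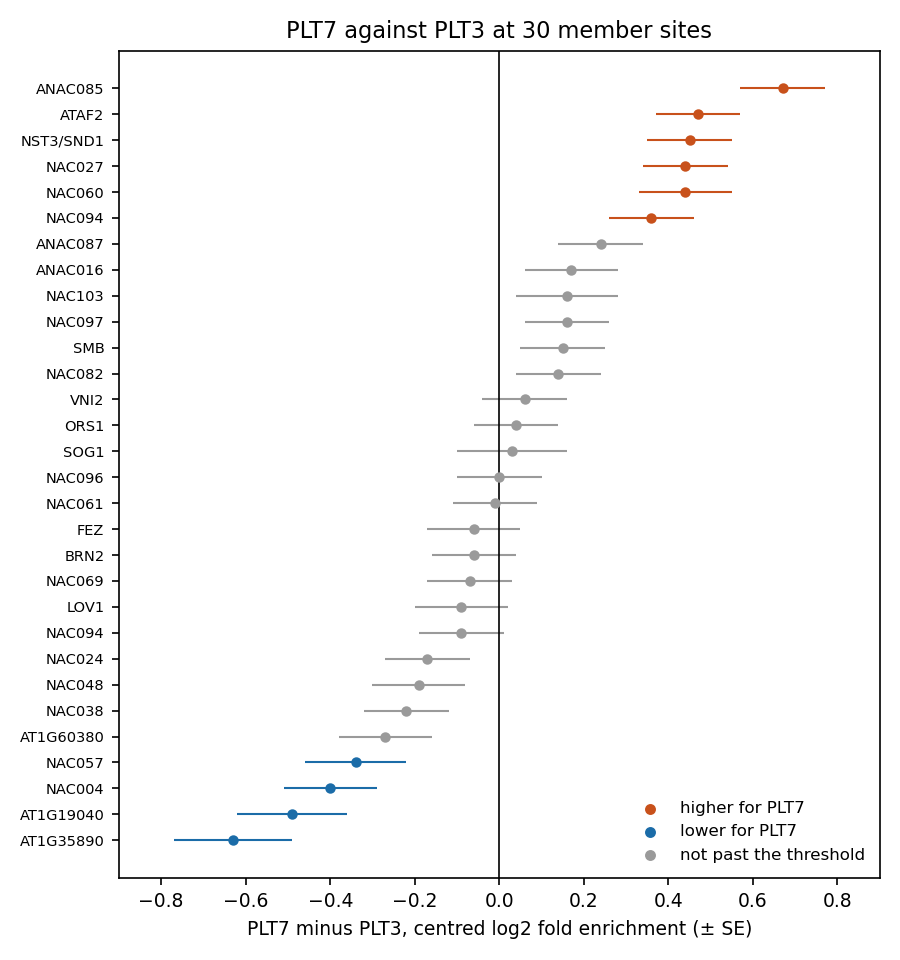
PLT7 minus PLT3 difference in centred log2 fold enrichment, averaged over SAM and IM, at the 30 member sites with a peak in all 8 libraries. Points are fitted differences and bars are ± 1 SE. The 6 orange sites (0.36 to 0.67) and the 4 blue sites (-0.63 to -0.34) passed an adjusted p of 0.05 and the grey ones did not. NAC094 appears for each of its sites.

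In strength, member sites were like sites at any gene. Over sites with a peak in all 4 libraries of a bait, the median mean fold enrichment was 4.34 for PLT7 at 36 member sites (quartiles 3.45 and 5.73), against 4.26 at the 9986 sites in the windows of all protein-coding genes, and 2.76 for PLT3 at 32 member sites, against 2.88.

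Most member summits lay upstream of the gene start. Of 49 member summits inside the window, 29 (59.2%, 95% Wilson interval 45.2 to 71.8%) lay upstream of the start, against 66.8% of the 13140 summits of all genes, and 13 (26.5%, 16.2 to 40.3%) lay in a coding exon of the gene, against 17.2%. Both intervals held the share of all genes, and the difference was not tested. Counting the summits just beyond the window, 15 member sites lay in coding exons. Of the 54 sites, 17 also lay in the window of another protein-coding gene, and for 47 the member's start was the nearest. No 2 members shared a site. The starts of 17 neighbouring pairs lay 1836 to 9651 bp apart. Among these pairs only the windows of AT1G60340 and NAC024 overlapped, so most pairs could hardly share a site.

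**Figure D5:**
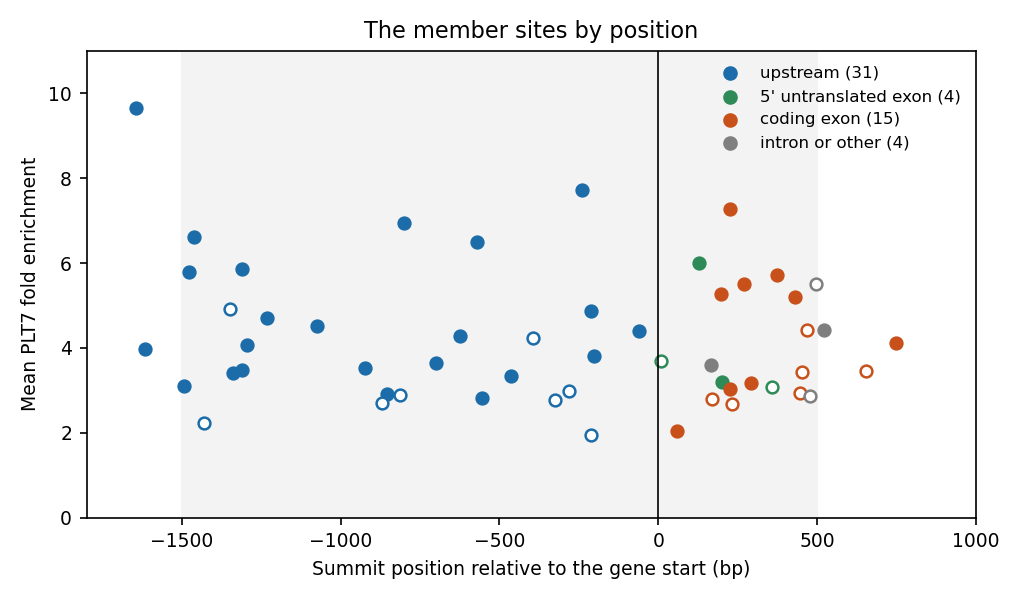
Mean PLT7 fold enrichment of the 54 member sites over the PLT7 libraries with a peak, by distance of the summit from the gene start in base pairs, coloured by what the annotation has there. Filled points had a peak in all 4 PLT7 libraries and open points in fewer, and the shaded band is the window. The 15 coding-exon summits lie between 59 and 750 bp downstream of the start, and the highest of them is NAC027 at 7.27.

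Of the 15 coding-exon sites, 7 had a stretch of sequence in common. The pattern CCNTGGNAN, on the strand of the gene, was noticed when the site sequences were read, so it has no test. It lay within 50 bp of the summit at those 7 member sites, and at 2.80% of the 3394 sites with a summit in a coding exon of another gene. The other 8 member sites, NAC027, NAC097 and ANAC016 among them, did not have it on the gene's strand. Genome tiles of the same length held it on a given strand in 1.32% of cases. The shown stretches are on the gene's strand, with the pattern in capitals.
NAC001 (chr1:3888-3917, plus strand): tagctacgatCCTTGGAACttgcgctgtaa
NAC004 (chr1:436618-436647, minus strand): tagcttcgagCCTTGGGATttaccttgtaa
NAC057 (chr3:6064510-6064539, plus strand): caaatgcgagCCATGGGACctcgcaggtat
ANAC089 (chr5:7377293-7377322, minus strand): caatttcgagCCTTGGGATttacccggttt
ANAC053 (chr3:3271858-3271887, plus strand): caaatctgagCCTTGGGATctcccaggtca
NAC041 (chr2:14181433-14181462, plus strand): taaatccgatCCATGGGATttaccaggtac
JUB1 (chr2:17882388-17882417, minus strand): taagtacgatCCTTGGGATcttccaagtaa
In all 7 the pattern began on the first base of a codon, between bases 139 and 187 of the coding sequence. Its first 3 bases thus coded for proline and the next 3 for tryptophan. Its place within the NAC domain was not determined. In 5 of the 7 the pattern lay within 4 bp of the summit, in NAC041 22 bp and in NAC057 25 bp away. The same pattern lay in a coding exon within the window in 45 of the 95 NAC genes (47.4%), bound or not. Read on the opposite strand, the pattern of NAC001, NAC004, ANAC089, ANAC053 and JUB1 held TNCCNANG, the last 8 letters of a stricter form of the PLT consensus. CCNTGGNAN itself sets all the fixed letters of TNCCNANG except the A, so this match follows largely from the pattern. Anywhere in a 101-bp genome tile, on either strand, TNCCNANG occurred in 9.86% of cases, which is not a like comparison. At NAC001 the pattern overlapped the matrix match, and at NAC004, NAC057 and ANAC053 the match lay elsewhere in the window, without overlap. ANAC089, NAC041 and JUB1 had the pattern and no matrix match in the window.

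NAC001 (AT1G01010) was the strongest of these 7 sites, with PLT7 at 5.71 and 3.86 on SAM DNA and 6.70 and 5.79 on IM DNA, and PLT3 at 2.92 in SAM replicate 1 and 3.01 and 2.97 on IM DNA. The coding-exon site of ANAC089 gave 4.93 and 4.50 for PLT7 on IM DNA. The others gave 1.93 to 3.83. Sequence shared between family members can also make reads hard to place, and how reads with several possible positions were handled is not given in the sources used here.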

How the data were processed

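DAP-seq libraries were trimmed with fastp 0.23.2 and aligned to TAIR10 with BWA 0.7.17, SAMtools 1.15 and MACS3 also being named in the submitters' processing notes, and the authors called peaks in each library without a control at a q-value of 0.1 with gaps of up to 100 bp. Each deposited peak list holds a score, a signal column that is the fold enrichment (a ratio to local background), and p- and q-values as −log10. No read counts were used here, so depth is unknown, and fold enrichment can change with depth and background.

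Replicate peaks sharing at least 1 bp were merged into pairs, ranked by their highest fold enrichment and compared with a re-implementation of the irreproducible discovery rate (IDR) model at 0.05. Pairs sharing 1 bp with a GFP peak of the same tissue were removed. This kept 15498 (PLT3), 554 (PLT5) and 20496 (PLT7) peaks for SAM, and 16628, 1844 and 23071 for IM. Gene starts, names and sequences come from RefSeq TAIR10.1, whose nuclear chromosomes match the files' coordinates. Fold enrichment was compared with limma 3.58.1 (R 4.3.3) on log2 values without a pseudocount, with Benjamini-Hochberg adjustment over all 14667 sites. Python 3.11.15 did the rest. The IDR, limma and matrix steps were tested on simulated data.

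Members, role lists and tests were chosen with earlier results of these data known. Named are members bound in all datasets, the 10 with the highest PLT7 values, those past the limma threshold, those bound by PLT3 and PLT7 in a single tissue, those on role lists and neighbouring pairs. Other members were named after their values were seen. Alternatives changed the ranking, the IDR and q-value thresholds, the overlap, GFP removal, the window, centring, pseudocount, replicate block, motif and libraries used.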

Additional observations from a re-analysis of the deposited data

How the results depend on the processing

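The number of members bound moved with the window and with the replicate comparison. With 1000 bp upstream only, PLT3 and PLT7 bound 18 and 18 members on SAM DNA and 17 and 25 on IM DNA, and PLT5 1 on IM DNA. With 3000 bp upstream to 1000 bp downstream, the counts were 45 (PLT3), 2 (PLT5) and 52 (PLT7) on SAM DNA and 47, 4 and 67 on IM DNA. The shares of all genes moved too: for PLT3 SAM, PLT7 SAM, PLT3 IM and PLT7 IM the wide window held a peak in 47.4, 54.7, 49.5 and 70.5% of members and 46.4, 57.2, 51.3 and 63.4% of all genes, and the short one in 18.9, 18.9, 17.9 and 26.3% against 17.7, 22.5, 19.3 and 25.1%. For PLT5, dropping the IDR step gave 4 members on SAM DNA and 8 on IM DNA, and an IDR of 0.01 gave 1 on IM DNA. With either replicate alone and no IDR step, the counts ran from 39 to 47 (PLT3 SAM), 9 to 10 (PLT5 SAM), 39 to 48 (PLT7 SAM), 42 to 47 (PLT3 IM), 13 to 14 (PLT5 IM) and 45 to 46 (PLT7 IM). Ranking by p-value or by summed fold enrichment, a q-value below 0.01, 50% reciprocal overlap, keeping GFP peaks and asking for the summit in the window left every count within 1.5 times its value. The last of these and the summed ranking were chosen after seeing the data.

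Without centring, 27 of the 30 member sites passed for PLT7 against PLT3, all higher, and 1 passed for IM against SAM in PLT7. NAC057, NAC004 and AT1G19040 then turned to 0.29, 0.23 and 0.14. Leaving out each library in turn gave 9 to 11 sites for PLT7 against PLT3 and 0 to 0 for the 3 other comparisons. A replicate block gave 11 sites for PLT7 against PLT3 and 0 for each of the others, and changed no other call. Deviations of same-numbered libraries correlated at 0.04 to 0.15, so the numbers were not taken to pair the samples. The matrix, added after seeing the data, was found in 65.6%, 75.8%, 66.7% and 63.8% of the member summits of PLT3 SAM, PLT7 SAM, PLT3 IM and PLT7 IM. The share with the 14-letter consensus stayed within its interval under the stricter form, with 100 bp on each side and with the summits of either replicate alone.

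Each bait and tissue had 2 libraries, GFP peaks can lie beside PLT peaks in a window, and a window assigns a peak to every gene it touches.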
